A study of Caenorhabditis elegans with 5 samples.

Results

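The messenger RNA of 7 *C. elegans* genes was followed across mutants of the histone H3 lysine 9 (H3K9) methylation pathway. Of these, *met-2*, *set-25* and *set-32* encode SET-domain methyltransferases, and *hpl-1*, *hpl-2*, *lin-61* and *cec-4* encode proteins that read methylated chromatin. They were chosen by function and found by sequence name (R05D3.11, Y43F4B.3, C41G7.4, K08H2.6, K01G5.2, R06C7.7 and F32E10.2), and all 7 were present among the 20167 genes of the table. Poly(A)-selected RNA from whole young adults, grown at 19 °C on OP50 bacteria, was sequenced in 5 libraries, 1 per genotype. They came from wild type (N2), *set-32(ok1457)*, *met-2(n4256)* with *set-25(ok5021)* (the double mutant), all 3 of these alleles together (the triple mutant), and *hrde-1(tm1200)*, a mutant of the germline nuclear Argonaute gene *hrde-1*. The alleles were carried by all tissues of the animal, and each library pooled many animals of 1 strain. The question for these genes was how their messenger RNA stood when 1, 2 or 3 of the methyltransferase genes, or *hrde-1*, were mutated.

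Methylation of H3K9 marks heterochromatin, and it is written by SET-domain enzymes and read by proteins with chromodomains or MBT repeats. In *C. elegans* embryos MET-2, related to mammalian SETDB1, places mono- and dimethylation, and SET-25 adds trimethylation. SET-32 is linked to H3K9 trimethylation at the targets of nuclear RNAi in the germline. HPL-1 and HPL-2 are the worm's relatives of heterochromatin protein HP1, LIN-61 is an MBT-repeat protein that binds methylated H3K9, and CEC-4 is a chromodomain protein that holds methylated chromatin at the nuclear periphery.

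Values are RPKM, that is, reads per kilobase of gene model scaled to sequencing depth. The steps between low values implied a depth of 1.8 M reads in *hrde-1*, 2.07 to 2.42 M in wild type, *set-32* and the double mutant, and 2.89 M in the triple mutant. Since no genotype had a replicate, no difference given here was tested or set against replicate error. A ratio is the RPKM of 1 library over that of another, with an exact (Clopper-Pearson) 95% interval from the estimated reads, which covers counting error only. In RNA from whole animals, fewer cells of a type and less RNA per cell cannot be told apart. All 10 oocyte, 12 germline, 12 intestine, 10 muscle and 9 neuron markers were above 0 in every library.

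The mutated genes were examined first. In the study's genotyping list, 1 primer pair for *met-2* and 1 for *set-25* is noted as lying in the deleted part of the gene, and these 4 primers are shown because by that note they mark what the double and triple mutants lack. Both genes are on chromosome III, and the primers are written 5′ to 3′.
*met-2* SG-834: gttggcagccgtaatgaaat
*met-2* SG-835: cgagccagacagaaatctcc
*set-25* SG-836: atatggatgcccacgagaag
*set-25* SG-837: ccgtgaaaaagagcatcaca
A value of a mutated gene is an average over its whole model. The missing segment and a smaller amount of the remaining transcript therefore cannot be told apart in its own mutant.

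*met-2* (III, 8375300 to 8380848, plus strand, WBcel235, 9 exons) was at 47.3 RPKM in wild type, 42.5 in *hrde-1* and 34.4 in *set-32*, against 12.6 in the double and 9.45 in the triple mutant. It was high in the 3 libraries with the intact gene and low in both without it, with no overlap, and its highest value was 5.01 times its lowest. Relative to wild type, 0.265 (0.213 to 0.331) remained in the double and 0.200 (0.160 to 0.247) in the triple mutant, from about 102 and 107 reads. *met-2* was also below wild type in *set-32*, where the gene is intact, at a ratio of 0.726 (0.625 to 0.843).

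*set-25* (III, 13283824 to 13293090, minus strand, 8 exons) was at 17.5 RPKM in wild type, 19.2 in *hrde-1* and 17.3 in *set-32*, against 10.3 in the double and 8.64 in the triple mutant. The libraries again fell into intact and mutated with no overlap, but the gap was smaller than for *met-2*. Relative to wild type, 0.591 (0.406 to 0.853) remained in the double and 0.494 (0.347 to 0.702) in the triple mutant, from about 46 and 54 reads. The gene is itself on the study's earlier list of germline nuclear RNAi-dependent heterochromatin, and in *hrde-1* its ratio was 1.1 (0.791 to 1.5), an interval that holds 1.

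*set-32* (I, 9519244 to 9521275, plus strand, 7 exons) was at 12.5 RPKM in wild type, 14.5 in *hrde-1* and 12.3 in the double mutant, against 8.15 in *set-32* and 5.65 in the triple mutant. Both libraries with its mutation were the lowest, but its own single mutant was not separated from wild type by counting error, at 0.651 (0.394 to 1.06) from about 28 reads against 47. The triple mutant stood at 0.452 (0.262 to 0.737). In the double mutant, where *set-32* is intact, it was at 0.981 (0.619 to 1.52) of wild type.

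**Figure D1:**
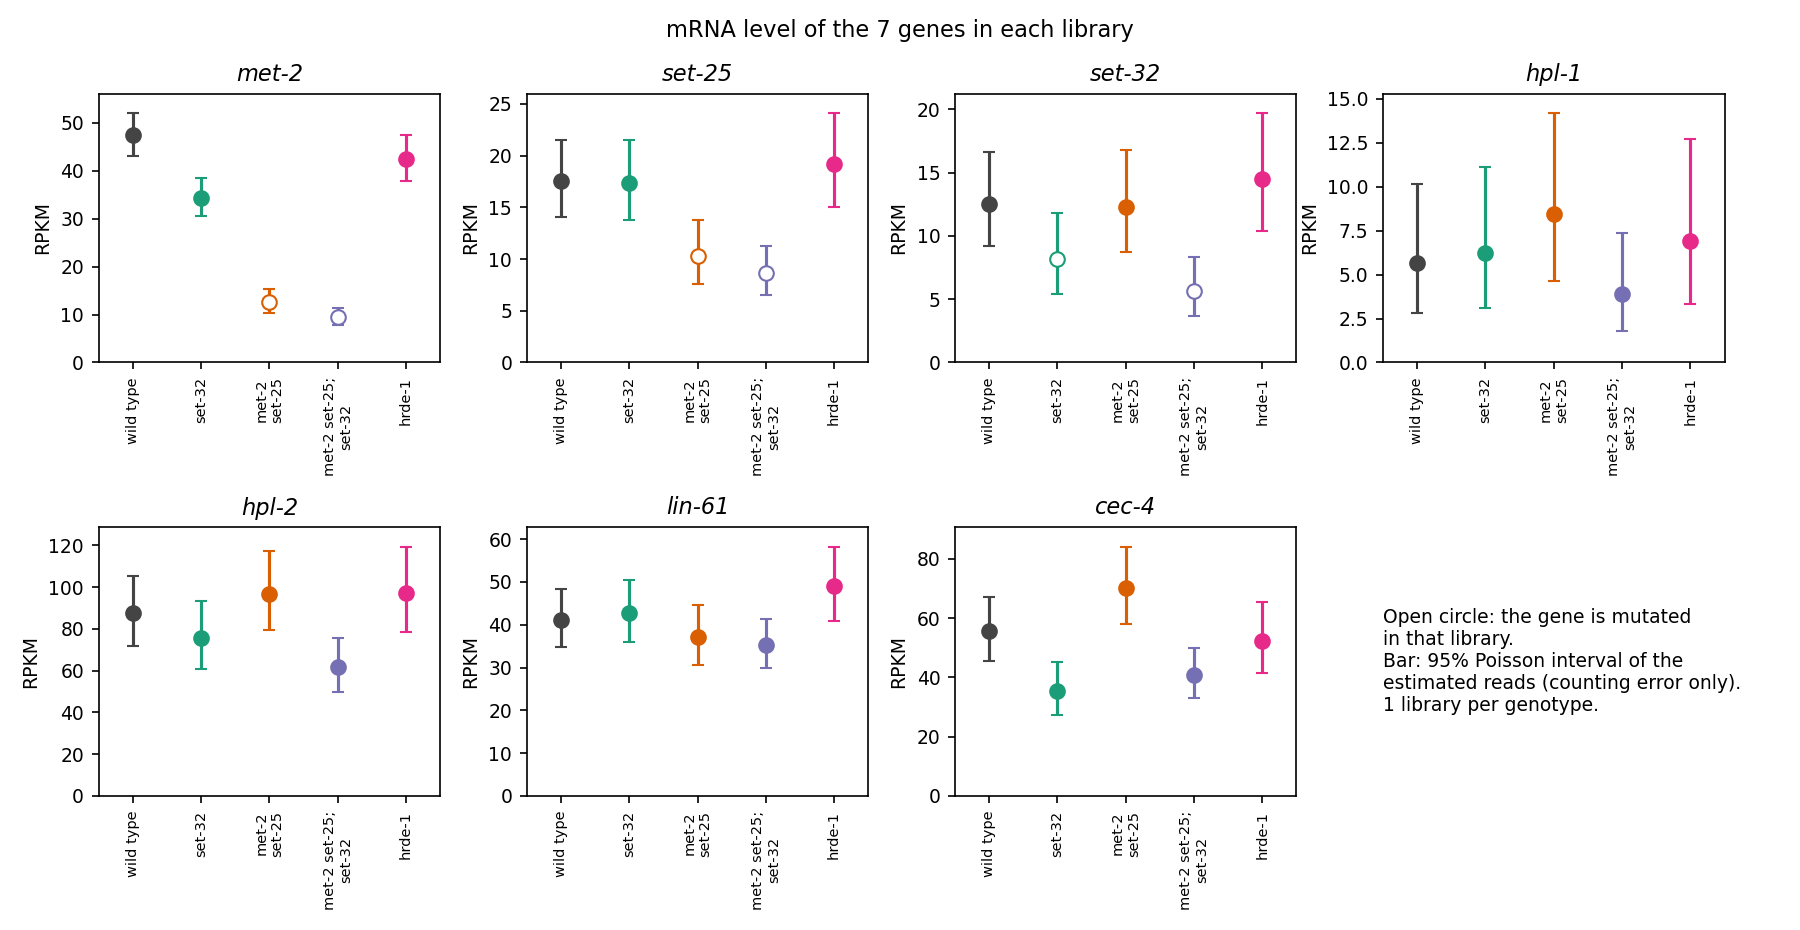
Level of each gene in RPKM (vertical axes, each from 0) in the 5 libraries, with open circles where the gene is mutated and bars for the 95% Poisson interval of the estimated reads. Among the intact genes, *cec-4* was lowest in *set-32* (35.4 RPKM) and the triple mutant (40.8 RPKM) and highest in the double mutant (70.1 RPKM).

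Among the readers, *cec-4* (IV, 7575718 to 7577326, plus strand) had its highest value 1.98 times its lowest. It was at 55.6 RPKM in wild type, 52.4 in *hrde-1* and 70.1 in the double mutant, against 35.4 in *set-32* and 40.8 in the triple mutant. Both libraries with the *set-32* mutation were below the other 3. The ratio was 0.636 (0.457 to 0.871) for *set-32* over wild type and 0.582 (0.439 to 0.766) for the triple over the double mutant, and the double mutant itself was at 1.26 (0.969 to 1.66) of wild type.

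*hpl-2* (III, 10752195 to 10755530, minus strand), the more abundant HP1 gene, was at 87.5 RPKM in wild type, 97.4 in *hrde-1* and 96.9 in the double mutant, against 75.6 in *set-32* and 61.7 in the triple mutant. Its libraries with the *set-32* mutation were likewise the lowest. The triple mutant was at 0.705 (0.527 to 0.931) of wild type and at 0.636 (0.474 to 0.843) of the double mutant, while *set-32* alone was at 0.864 (0.644 to 1.15). The table's model carries the name of 1 of 3 annotated transcripts (K01G5.2a.1, which has the shortest coding length of them, 528 bases), and the others were not measured apart.

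*hpl-1* (X, 13245390 to 13247044, plus strand), the other HP1 gene, was the least abundant of the 7 in wild type and rested on 9 to 14 reads a library. It was at 5.66 RPKM in wild type, 6.9 in *hrde-1* and 8.44 in the double mutant, against 6.2 in *set-32* and 3.87 in the triple mutant. All of its intervals held 1. The widest departures, 1.49 (0.629 to 3.63) in the double mutant over wild type and 0.459 (0.175 to 1.14) in the triple over the double mutant, were not detectable differences at this depth. *hpl-2* was 11.5 to 15.9 times as high as *hpl-1* within each library, and neither gene shared identical values with another model.

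*lin-61* (I, 7248827 to 7251282, minus strand) had the narrowest range of the 7, with a highest value 1.39 times its lowest. It was at 41.15 RPKM in wild type, 48.98 in *hrde-1* and 42.7 in *set-32*, against 37.15 in the double and 35.2 in the triple mutant. Both libraries with the *met-2 set-25* mutations were the lowest, but each interval against wild type held 1, with 0.903 (0.698 to 1.16) for the double and 0.856 (0.675 to 1.08) for the triple mutant.

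In wild type the order was *hpl-2*, then *cec-4*, *met-2* and *lin-61*, then *set-25*, *set-32* and *hpl-1*. *hpl-2* lay above *cec-4*, and *lin-61* above *set-25*, with intervals that were apart. The neighbours within the middle 3 and within the last 3 had intervals that overlapped and were not separated. *hpl-2* ranked at percentile 88.5 of the models with at least 1 RPKM in wild type, *cec-4* at 79.2, *met-2* at 75.3, *lin-61* at 71.8, *set-25* at 52.4, *set-32* at 45.7 and *hpl-1* at 31.1. *met-2* exceeded *set-25* by 2.71 times in wild type, 1.98 in *set-32* and 2.21 in *hrde-1*, and by 1.21 and 1.09 in the double and triple mutants, where both genes are deleted in part. The triple mutant, the deepest library, was the lowest of the 5 for 6 of the 7 genes, the exception being *cec-4*.

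**Figure D2:**
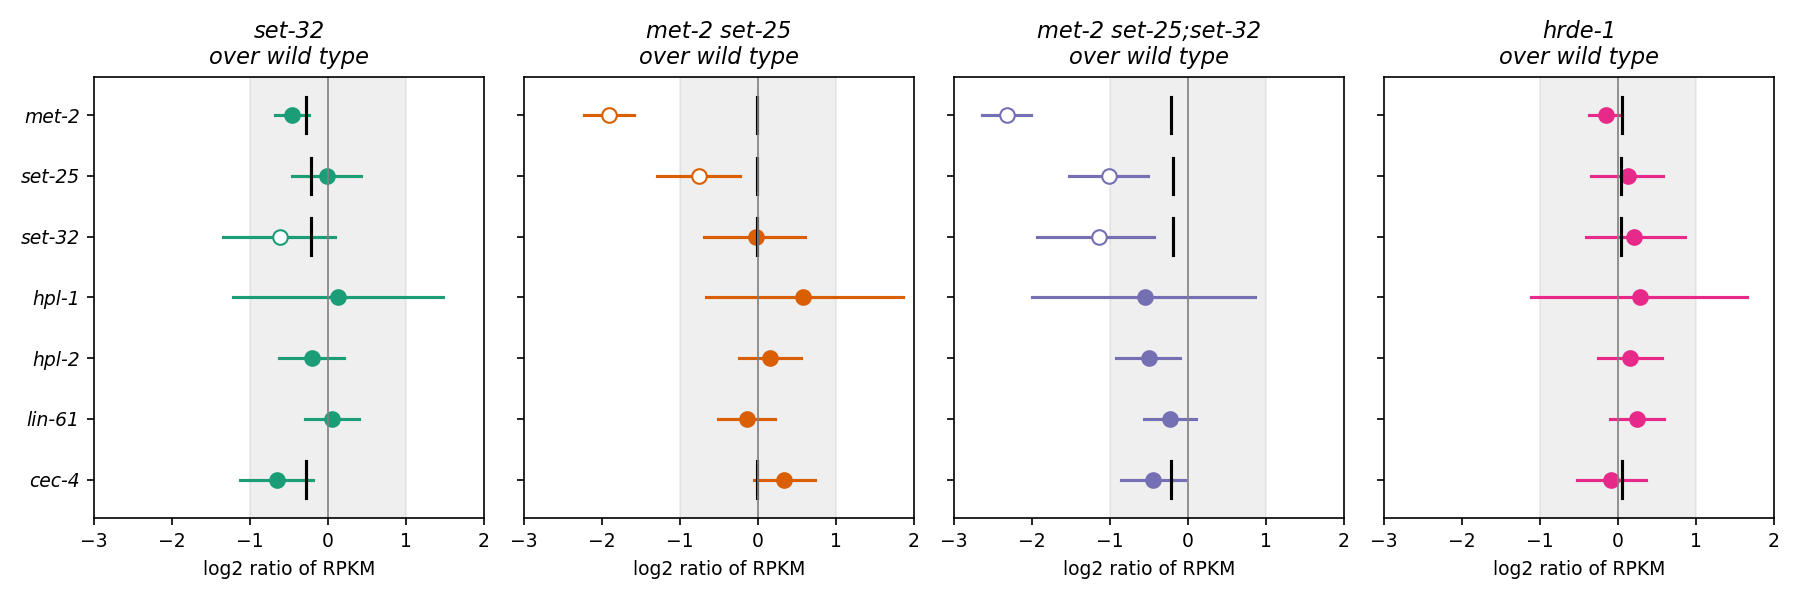
Log2 ratio of RPKM to wild type (horizontal axes) for the 7 genes in the 4 mutants, with open circles for mutated genes, bars for the 95% counting interval, grey for less than 2-fold, and a black tick at the median (log2 of RPKM + 1) of the gene's germline class where it has one. The intervals lie below 0 for *met-2* and *cec-4* in *set-32*, for *met-2* and *set-25* in the double mutant, and for 5 genes in the triple mutant.

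The comparison of *set-32* with wild type concerned loss of this enzyme alone. None of the 7 genes was at least 2-fold apart, where a count needs 2-fold on the log2(RPKM + 1) scale and at least 5 RPKM in the higher library. Of all models tested by this rule, 4.19% were higher and 2.14% lower. The intervals of *met-2* and *cec-4* lay below 1, against 17% of all models, and 0 of the 7 lay above 1, against 11.5%. The log2 ratio was -0.45 for *met-2*, -0.64 for *cec-4*, -0.56 for *set-32*, -0.21 for *hpl-2*, -0.01 for *set-25*, 0.05 for *lin-61* and 0.11 for *hpl-1*.

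Oocyte and intrinsic germline genes were lower as a group in the same library, and sperm genes were higher. The study's table sorts genes by their germline expression into an oocyte class, an intrinsic class and a sperm class. It puts *met-2* and *cec-4* in the oocyte class, *set-25* and *set-32* in the intrinsic class, and the other 3 in none. In *set-32* the oocyte class had a median log2 ratio of -0.28, with 84.9% of 689 models below 0. The intrinsic class had -0.22, with 76.5% of 782 below 0, and the sperm class 0.46, with 24.2% of 546 below 0. The median of all models was -0.02. Within its class *met-2* was at percentile 23.4 and *cec-4* at 8.28, so both ratios were below those of most oocyte-class genes. The 10 oocyte and embryo markers summed to 4047 RPKM in wild type and 3445 in *set-32*, with 10 of 10 below 0, and the 12 germline markers to 1686 and 1469, with 11 of 12 below 0. The 57 sperm markers summed to 1847 and 4113, with 51 of 52 measured above 0 and 3 and 4 listed at 0. Of the 12 intestine markers 9 were above 0, with a median of 0.41, and they summed to 9211 RPKM in wild type and 12450 in *set-32*. Of the 112 measured cuticle and hypodermis markers 73 were below 0, with a median of -0.65, while their sum went from 44078 to 54527 RPKM. The part of these tissue differences in the values of *met-2* and *cec-4* was not tested.

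In the double mutant *met-2* alone was at least 2-fold lower, against 1.6% of all models, and 0 of the 7 were higher, against 3.3%. The intervals below 1 were those of the mutated *met-2* and *set-25*, against 7.52% of models, and none was above 1, against 9.69%. The intact genes had log2 ratios of 0.50 for *hpl-1*, 0.33 for *cec-4*, 0.15 for *hpl-2*, -0.03 for *set-32* and -0.14 for *lin-61*. The oocyte and intrinsic classes were close to 0 here, at -0.02 and -0.01. The sperm class was at 0.15, with 38.8% of 546 models below 0, and 41 of 52 measured sperm markers were above 0, with a median of 0.38. *cec-4* was at percentile 91.9 of the oocyte class.

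In the triple mutant *met-2* and *set-32* were at least 2-fold lower by the rule, against 1.7% of models. None of the 7 was higher, against 3.76%. *set-25*, at an RPKM ratio of 0.494, fell short of the rule on the scale of RPKM + 1. The intervals of 5 genes lay below 1, against 15.3% of models, and none lay above 1, against 11.7%. These 5 were the 3 mutated genes and the intact readers *cec-4*, at 0.733 (0.553 to 0.977), and *hpl-2*, given above. The oocyte class had a median of -0.22 in this library and the intrinsic class of -0.19. The oocyte and embryo markers summed to 3592 RPKM (9 of 10 below 0), and the germline markers to 1550 (9 of 12 below 0), while 11 of 12 intestine markers were above 0 (sum 11559 RPKM). *cec-4* was at percentile 17.5 of the oocyte class. *hpl-2*, at -0.50, was at percentile 6.71 of the models with no class, whose median was 0.02. The part of these differences in the values of *cec-4* and *hpl-2* was not tested.

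In *hrde-1* none of the 7 was at least 2-fold higher or lower, against 2.68% and 3.55% of models, and all 7 intervals held 1, against 10.4% of models above and 10.4% below. The ratios ran from 0.897 (0.773 to 1.04) for *met-2* to 1.22 (0.464 to 3.16) for *hpl-1*. No difference of any of these genes from wild type was detectable at the depth of this library, the shallowest of the 5. For *lin-61* the ratio was 1.19 (0.929 to 1.51) and for *cec-4* 0.942 (0.698 to 1.28). In this library all 10 oocyte and embryo markers were above 0 (median 0.35, sum 5059 RPKM). Below 0 were 9 of 10 muscle markers (median -0.47, sum 2580 RPKM) and 100 of 112 cuticle and hypodermis markers (median -1.02). Sperm genes were lower too, as 72.9% of the 546 models in their class fell below 0 (median -0.41). So did 37 of 52 measured sperm markers (median -0.22) and 8 of 9 neuron markers (median -0.29). Medians of the oocyte and intrinsic classes were 0.06 and 0.04. The part of these differences in the values of the 7 genes was not tested.

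Loss of *set-32* was measured in 2 pairs of libraries that share no library, *set-32* over wild type and the triple over the double mutant. *cec-4* had log2 ratios of -0.64 and -0.77 in these pairs, *met-2* of -0.45 and -0.38 (the second from the remaining part of its transcript), *hpl-2* of -0.21 and -0.64, *set-25* of -0.01 and -0.23, and *lin-61* of 0.05 and -0.07. *cec-4* and *met-2* had intervals below 1 in both pairs, *hpl-2* and *set-32* in the triple over the double mutant. The share of all models below 1 in both pairs was not computed. The oocyte class, which holds *cec-4* and *met-2*, was lower in both pairs, with medians of -0.28 and -0.21. Of its 689 models, 84.9% and 82.4% were below 0. In the triple over the double mutant 13.7% of all models had intervals below 1 and 7.27% above, where 0 of the 7 lay. In the same pair *cec-4* stood at percentile 1.63 of the oocyte class and *met-2* at percentile 20.6. By the 2-fold rule on RPKM + 1, no gene of the set was lower or higher between these libraries, against 1.77% and 2.13% of models. *set-32* itself was just short of the rule in the triple over the double mutant, at a log2 ratio of -0.997. In *set-32* over wild type it was at -0.56, with an interval that held 1. Its RPKM ratio in the triple over the double mutant was 0.460 (0.265 to 0.775), and that of *hpl-1* was 0.459 (0.175 to 1.14).

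Loss of *met-2* and *set-25* was likewise measured in 2 separate pairs, the double mutant over wild type and the triple mutant over *set-32*. These pairs hold the same libraries as those for loss of *set-32*, so the difference between pairs is the same number for both losses. *met-2* had log2 ratios of -1.83 and -1.76 and *set-25* of -0.71 and -0.93. The triple mutant over *set-32* gave ratios of 0.275 (0.218 to 0.344) for *met-2* and 0.499 (0.350 to 0.717) for *set-25*. These were the 2 intervals below 1, against 8.42% of models, and none lay above 1, against 10.4%. *met-2* was the gene of the set past the 2-fold rule, against 2.6% of models lower, and none was higher, against 2.73%. *set-25* fell short of the rule on the scale of RPKM + 1. *cec-4* was at 0.33 and 0.20 on the log2 scale. The sperm class had medians of 0.15 and -0.34 in the 2 pairs. In the triple mutant over *set-32*, 50 of 52 measured sperm markers were below 0, with a median of -1.01. The part of this in the ratios of the 7 genes was not tested. For each of the 7 genes, both measures of a loss differed by less than the margin of their joint 95% counting interval, which ran from 0.44 for *met-2* to 1.71 for *hpl-1* on the log2 scale.

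**Figure D3:**
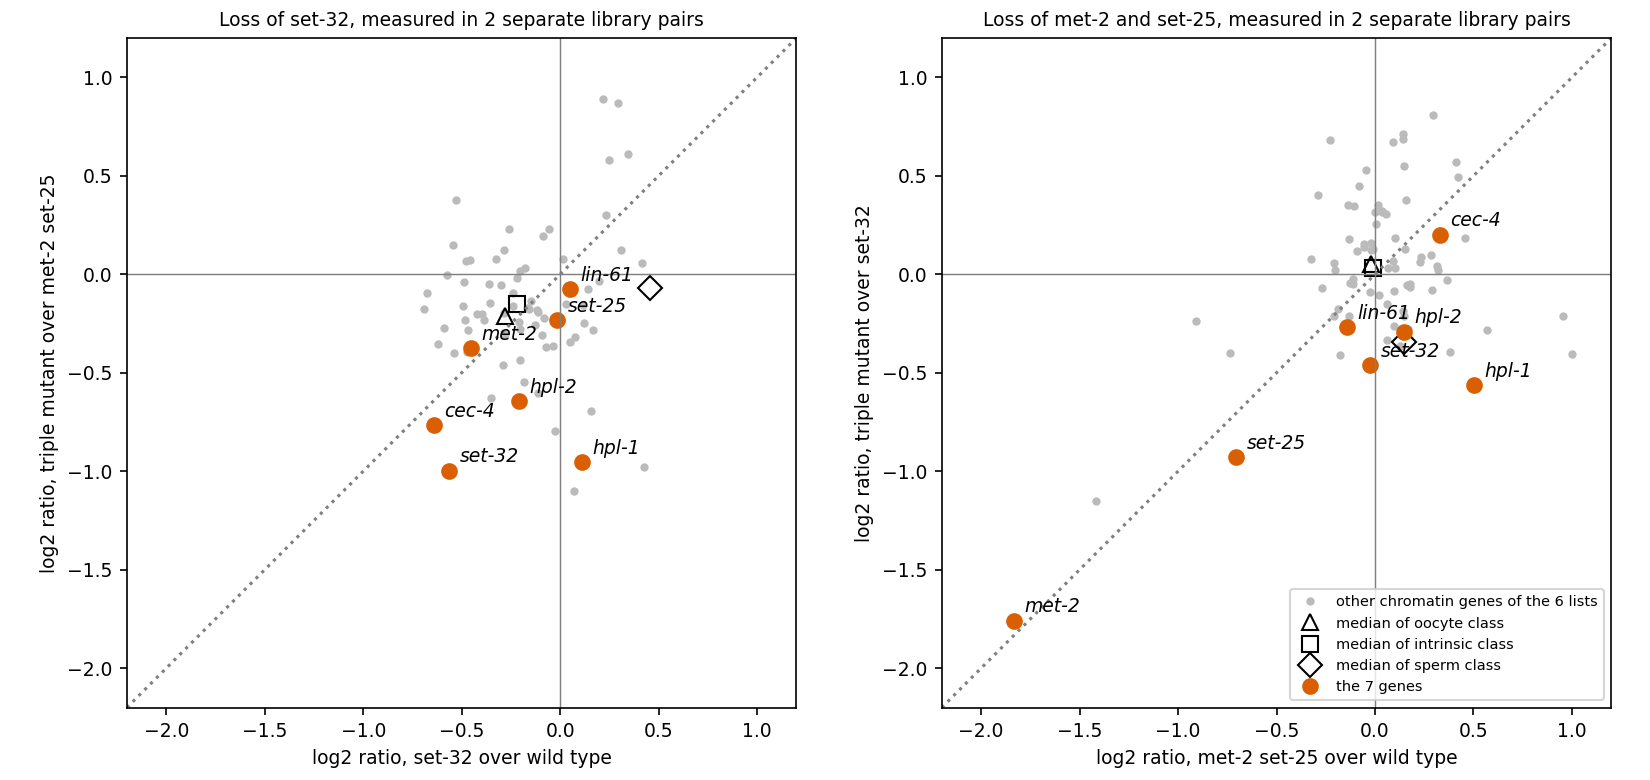
Log2 ratio (RPKM + 1) for loss of *set-32* (left) and for loss of *met-2* and *set-25* (right), each measured in a pair of libraries with the other genes intact (horizontal axis) and in a separate pair with them mutated (vertical axis), with the 7 genes in orange, the other chromatin genes in grey, open symbols for the medians of the germline classes and a dotted line of equal values. *cec-4* lies in the lower left on the left side (-0.64 and -0.77) and in the upper right on the right side (0.33 and 0.20).

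When both libraries with the *set-32* mutation were set against the 3 without it, the intact *cec-4* and *hpl-2* were lower with no overlap. So was *set-32*, which is mutated there, and none of the 7 was higher. Of all models with at least 5 RPKM in some library, 21.6% were lower in this way and 12.5% higher. The share lower was 53.1% in the oocyte class of *cec-4*, 41.7% in the intrinsic class of *set-32* and 18.2% among models with no class, such as *hpl-2*. For the *met-2 set-25* mutations, *met-2*, *set-25* and *lin-61* were lower with no overlap, against 6.62% of models, and none was higher, against 11.3%. The smallest two-sided p that an exact permutation test of 3 libraries against 2 allows is 0.2, and no such test was made.

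Genes adjacent to the 7 show whether a value was shared along the locus. The closest genes on both sides of *met-2*, on the same strand, were each less far below wild type than *met-2* in the double and triple mutants. *lmbr-1*, 127 bases before it, was at 49.4 RPKM in wild type, 47.2 in *hrde-1* and 31.7 in *set-32*, against 43.3 in the double and 44.7 in the triple mutant, with a ratio to wild type of 0.876 (0.737 to 1.04) in the double mutant. R05D3.12, 96 bases after it, was at 11.5, 12.1, 6.29, 8.65 and 7.54 RPKM in the same order of libraries, with a ratio of 0.753 (0.539 to 1.04) in the double mutant. *lmbr-1* stood at 0.905 (0.774 to 1.06) of wild type in the triple mutant, and R05D3.12 at 0.656 (0.485 to 0.896), an interval below 1. In *set-32* both neighbours were below wild type as *met-2* was, at 0.640 (0.532 to 0.773) and 0.547 (0.382 to 0.777). *mina-1*, 507 bases from *set-32*, was at 81.1 RPKM in wild type and between 78.5 and 83.4 in the 4 mutants. In those mutants *set-32* ran from 5.65 to 14.5 RPKM. The neighbours of *hpl-2* went in opposite directions in the triple mutant, where *hpl-2* was at 0.705 of wild type. *rnf-113*, 93 bases away on the same strand, was at 0.799 (0.653 to 0.977). *enu-3.6*, 264 bases away on the opposite strand, was at 2.10 (1.35 to 3.47). In the double mutant *enu-3.6* was at 1.75 (1.07 to 3.01) and *rnf-113* at 0.842 (0.676 to 1.05).

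Opposite-strand genes overlap *cec-4* and *set-25*, and the sources used here do not say which strand was counted. *cec-4* lies inside F32E10.5, which covers 141 of the 1119 exon bases of *cec-4* and was at 34.6 RPKM in wild type, 32.7 in *hrde-1* and 35.0 in the double mutant, against 30.4 in *set-32* and 24.6 in the triple mutant. F32E10.5 was at 0.878 (0.682 to 1.13) in *set-32*, where *cec-4* was at 0.636, and at 0.710 (0.554 to 0.908) in the triple mutant, where *cec-4* was at 0.733. The end of *set-25* shares 64 of its 2800 exon bases with *unc-64*, a syntaxin gene of neurons, and F56A8.8 lies within *set-25* with 0 exon bases shared. *unc-64* was at 25.6 RPKM in wild type, 19.1 in *hrde-1*, 12.9 in *set-32*, 13.3 in the double and 20.4 in the triple mutant. It was low in *set-32*, at 0.504 (0.302 to 0.829), where *set-25* was level, and in the double mutant, at 0.520 (0.308 to 0.857), where *set-25* was at 0.591.

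**Figure D4:**
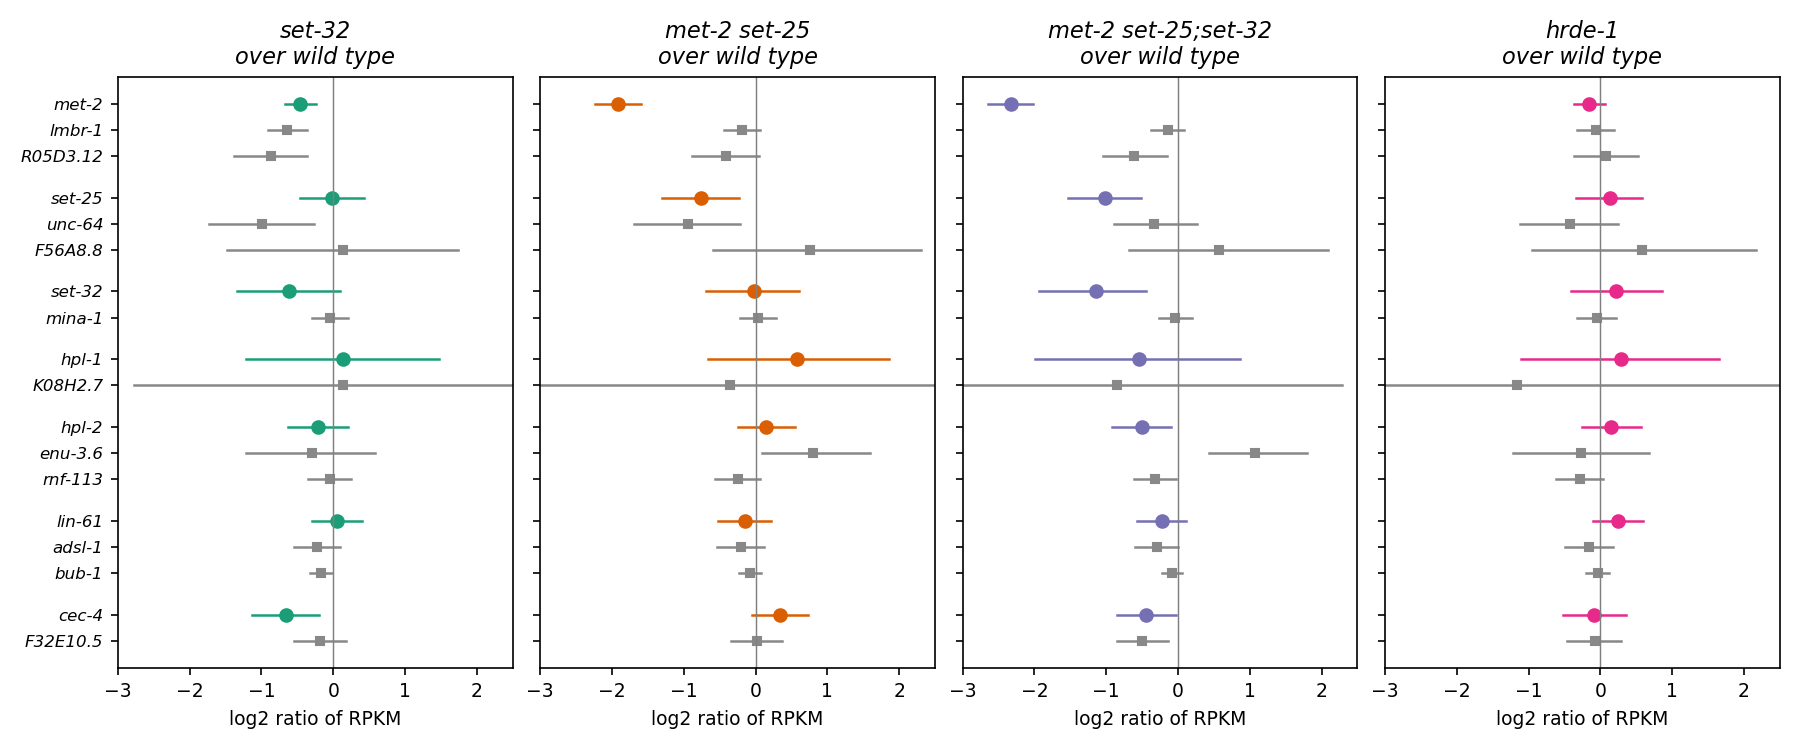
Log2 ratio of RPKM to wild type (horizontal axes) for each of the 7 genes (coloured circles) and its adjacent or overlapping genes (grey squares) in the 4 mutants, with 95% counting intervals, some of which run past the axis for K08H2.7. *met-2* stands apart from *lmbr-1* and R05D3.12 in the double and triple mutants but not in *set-32*.

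The genes whose 4 ratios to wild type were closest to those of each mutated gene were sought among 7903 models whose mean was 10 RPKM or more, by the root mean square difference of log2 ratios. The likeness rests on 4 ratios that share 1 wild-type library and is a description only. The nearest to *met-2* was *ugt-62*, of the UDP-glucuronosyltransferase family, which differed by 0.61 and was at 116.7 RPKM in wild type, 72.4 in *hrde-1*, 62.0 in *set-32*, 54.1 in the double and 39.6 in the triple mutant. It was followed by *sel-2* (0.61) and *rips-1* (0.64), and none of the 3 fell as far in the double mutant as *met-2*. For *set-25* the nearest were F13A2.4 (0.16), *anp-1* (0.18) and *emc-6*, of the endoplasmic reticulum membrane complex (0.18). For *set-32* they were *tag-115* (0.09), *egrh-3* (0.13) and Y62F5A.12 (0.15). *tag-115* was at 35.6 RPKM in wild type, 36.8 in *hrde-1* and 35.5 in the double mutant, against 23.3 in *set-32* and 18.1 in the triple mutant. That *tag-115* was lowest in the libraries with the *set-32* mutation, as *set-32* was, follows from how it was chosen. Of all models with at least 5 RPKM in some library, 21.6% were lower in both of these libraries. The median difference of all models was 1.46 from *met-2*, 0.63 from *set-25* and 0.60 from *set-32*.

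The other genes of the pathway were taken from 6 lists: other SET-domain genes, H3K9 demethylase families, other chromodomain and MBT genes, partners of MET-2 and HPL-2, genes of the DRM and NuRD-type complexes with other synMuv B genes, and genes of the nuclear lamina and envelope. Of 74 genes, 71 had a mean of 1 RPKM or more and were measured. *set-20*, a SET-domain gene, was the only one that met the 2-fold rule in a mutant against wild type. It had 2.94 RPKM in wild type and 6.89 in the double mutant, a ratio of 2.34 (1.09 to 5.35), and 3 in the triple mutant. That was 1 of 67 tested in the double mutant, against 3.3% of all models higher. In the other mutants between 1.7% and 4.19% of all models met the rule in each direction. *set-10*, another, was at 8.59 RPKM in wild type, 8.23 in *hrde-1* and 17.6 in the double mutant, against 9.08 in *set-32* and 7.69 in the triple mutant. Its RPKM ratio in the double mutant was 2.05 (1.24 to 3.40), short of the rule on the scale of RPKM + 1. The triple was at 0.437 (0.267 to 0.714) of the double mutant and met the rule, as 1 of 67 tested, against 1.77% of all models lower. Both genes had their highest value in the double mutant. *set-23* had its lowest there, with 17.8 RPKM beside 33.9 to 40.1 in the other 4 libraries, at 0.518 (0.317 to 0.828) of wild type. *set-13* went from 2.74 RPKM in wild type to 0.4 in the double mutant, below the 5 RPKM that the rule needs.

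In *set-32* the 71 genes had a median log2 ratio of -0.18, with 51 below 0, beside 51.3% of all models below 0. Of the 65 tested, 23 had intervals below 1 and 0 above, against 17% and 11.5% of all models. In the triple mutant the median was -0.14, with 53 below 0, beside 50.4% of all models. Of 65 tested, 12 had intervals below 1 and 4 above, against 15.3% and 11.7% of all models. In the double mutant it was 0.06, beside 0.06 for all models, with 2 intervals below 1 and 8 above of 67, against 7.52% and 9.69% of models. In *hrde-1* it was 0.14, beside -0.00 for all models, with 4 below and 12 above of 66, against 10.4% of models each way. The markers that moved in *hrde-1*, given above, stand beside this value, and their part in it was not tested. The medians of the 71 genes in *set-32* and the triple mutant lay between those of all models and of the oocyte and intrinsic classes. The sperm class was at 0.46 and 0.08 there. With libraries rescaled to the intrinsic class, the medians of the 71 genes turned to 0.035 and 0.044.

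Genes of the DRM and NuRD-type complexes and other synMuv B genes encode repressors that act with HPL-2 and LIN-61 in vulval development. In *set-32* 12 of 13 were below 0, with a median of -0.24, beside 51.3% of all models below 0. In the triple over the double mutant 13 of 13 were, with a median of -0.22, beside 56.9% of all models. None was 2-fold lower in either, against 2.14% and 1.77% of all models. With libraries rescaled to the intrinsic class, the median in *set-32* was -0.02. *lin-35*, the retinoblastoma-related gene, was at 58.8 RPKM in wild type, 68.5 in *hrde-1* and 57.9 in the double mutant, against 42.3 in *set-32* and 47.4 in the triple mutant. Its ratio in *set-32* was 0.719 (0.614 to 0.840). *lin-53*, for a histone-binding protein, and *hda-1*, a histone deacetylase gene, were the most abundant of the list, at 192.9 and 119.4 RPKM in wild type and at 163.3 and 101.1 in *set-32*. In *hrde-1* 11 of 13 were above 0, with a median of 0.21, beside 6696 of all 13613 measured models above 0. All 10 oocyte and embryo markers were also above 0 in that library, and the part of that difference was not tested.

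The SET-domain list had a median of -0.12 in *set-32* and 0.09 in the double mutant over 31 genes. Rescaled to the intrinsic class, its median in *set-32* turned to 0.10. *met-1*, for an H3K36 methyltransferase, was at 30.1 RPKM in wild type, 37.65 in *hrde-1* and 37.8 in the double mutant, against 23.4 in *set-32* and 24.1 in the triple mutant. It was at 0.776 (0.655 to 0.913) of wild type in *set-32* and at 1.25 (1.08 to 1.46) in the double mutant. *mes-4*, for another H3K36 methyltransferase of the germline, was at 34.7 RPKM in wild type and in the double mutant, 37.2 in *hrde-1*, 22.7 in *set-32* and 28.5 in the triple mutant, with a ratio of 0.655 (0.525 to 0.813) in *set-32*. *set-9* and *set-26* are near-identical copies, and their values are uncertain one by one.

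None of the genes of the lamina, of the partner proteins or of the chromodomain and MBT list was 2-fold apart in any comparison. Of all models, 1.6% to 4.19% were in each direction. *baf-1*, for a DNA-bridging protein of the nuclear envelope, was at 236.3 RPKM in wild type, 222.9 in *hrde-1* and 234.8 in the double mutant, against 162.5 in *set-32* and 177.5 in the triple mutant. *lmn-1*, for lamin, was at 201.8, 195.6, 202.7, 163.4 and 195.4 RPKM in the same order. In *set-32* *baf-1* was at 0.688 (0.530 to 0.895) and *lmn-1* at 0.810 (0.738 to 0.890) of wild type. The partner genes *lin-65* and *arle-14*, whose proteins act with MET-2, ran from 32.7 RPKM in the triple mutant to 51.4 in *hrde-1* and from 56.8 in wild type to 76.2 in *set-32*. Of the chromodomain genes, *cec-5* was at 173.2 RPKM in wild type and 135.2 in *set-32*, a ratio of 0.781 (0.677 to 0.901), and *cec-3* at 80.8 and 75.7, a ratio of 0.937 (0.758 to 1.15). *mbtr-1*, an MBT-repeat gene like *lin-61*, was at 14.9 RPKM in wild type, 21.3 in *hrde-1* and 17.6 in *set-32*, against 20.3 in the double and 25.3 in the triple mutant. Its triple mutant was at 1.7 (1.24 to 2.35) of wild type, where *lin-61* was at 0.856.

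Of the H3K9 demethylase families, 5 genes were measured and none was 2-fold apart, against 1.6% to 4.19% of all models in each direction. *jmjd-1.2* was at 55.2 RPKM in wild type, 61.3 in *hrde-1* and between 47.8 and 48.6 in the other 3. *spr-5*, of the LSD1 family, was at 35.5 RPKM in wild type, 42.8 in *hrde-1* and 37.8 in the double mutant, against 29.03 in *set-32* and 30.4 in the triple mutant. *jmjd-2* was above wild type in the triple mutant at 1.35 (1.05 to 1.72) and in *hrde-1* at 1.4 (1.06 to 1.83).

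**Figure D5:**
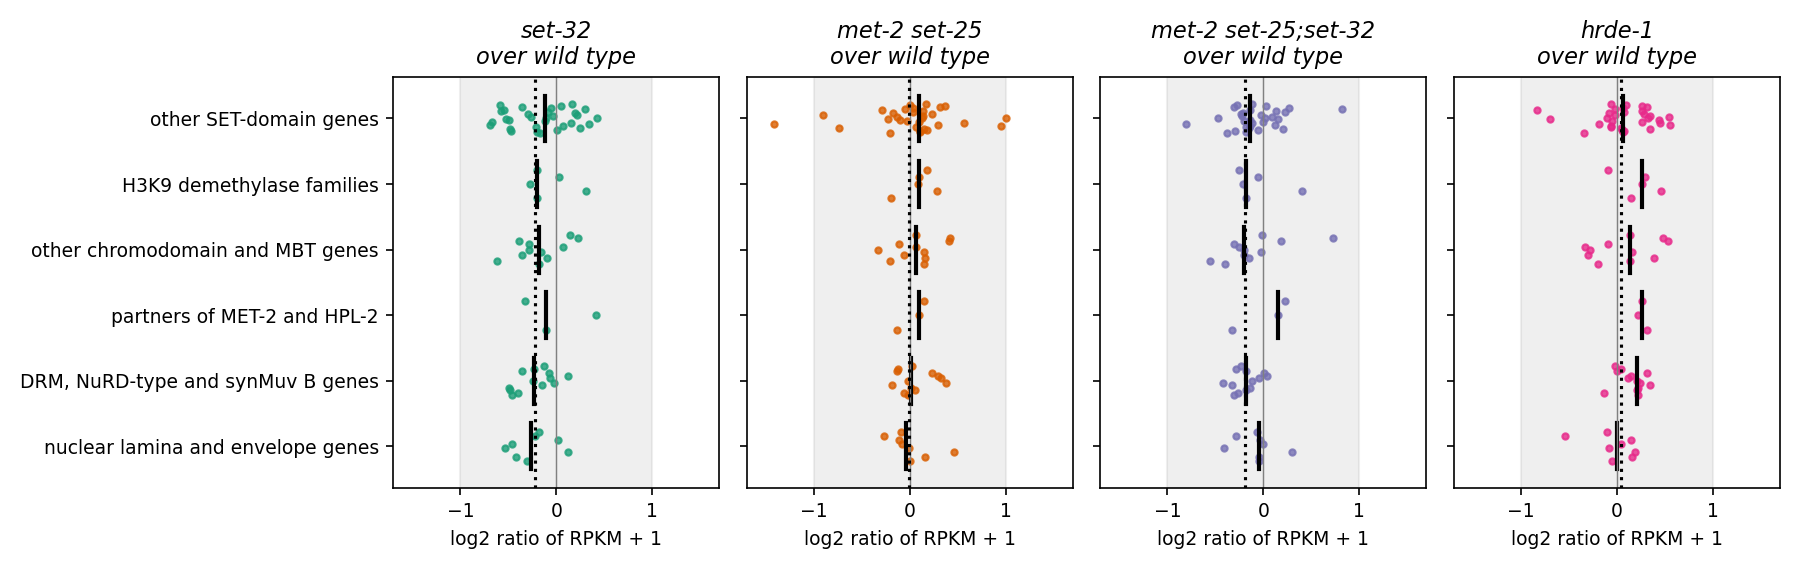
Log2 ratio (RPKM + 1) to wild type (horizontal axes) of each measured gene of the 6 lists (points) in the 4 mutants, with a solid black line for the median of each list, a dotted line for the median of the intrinsic germline class, and grey for less than 2-fold. The lists' medians lie to the left of 0 in *set-32*, where the dotted line is at -0.22, and in the double mutant *set-20* passes 2-fold on the right and *set-13*, under 5 RPKM and so not counted, on the left.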

How the data were processed

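Young adult animals were ground, and poly(A) RNA was made into mRNA libraries and sequenced as 50-nt single-end reads. Per the study's methods, the authors aligned reads to WS190 with Bowtie 0.12.7, used perfect alignments only, counted a read with several alignments as a fraction at each and scaled by depth. The deposited values are RPKM, written with 2 decimals for each gene model, and the counting strand and gene lengths are not given in the sources used here. Because a perfect match was required, sequence differences between strains can lower a value. Columns were assigned to samples through the library names in the study's library list. The table also marks germline classes and 2 target lists of the authors, of which only set-25's membership is mentioned.

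Of 20911 models, 20315 (97.1%) matched WBcel235 (Ensembl release 115) by sequence name. For a gene with several models, the one with the highest mean was used. Reads were estimated from RPKM steps and coding or exon lengths. Only 47.2% to 50.3% of low values were whole reads within 0.1, so read numbers and intervals are approximate. Ratios were log2((a + 1)/(b + 1)) with a pseudocount of 1 RPKM. Counts took models at least 2-fold apart with at least 5 RPKM in the higher library, and medians took models whose mean was 1 RPKM or more. The procedure was tested on simulated data. Python 3.11.15, NumPy 2.4.6, pandas 2.3.3, SciPy 1.17.1 and matplotlib 3.10.9 were used.

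The members and lists were chosen with earlier results of these data known. Named list genes were those past 2-fold (at most 4) or the 2 most abundant of a list. *met-1*, *mes-4*, *set-23*, *set-13*, *set-9*, *set-26*, *lin-35*, *mbtr-1*, *jmjd-2* and the adjacent genes (within 1000 bases) were named after their values were seen, as was the grouping of libraries by mutation. 2 of 76 list names (*set-33*, *cec-9*) were not matched. The placing of primers on a genome and the comparison of HPL proteins were not run. Alternatives were pseudocounts of 0.1 and 5, rescaling to all models or to the intrinsic class, no and stricter filters, the median of the other libraries as reference, the mean of a gene's models, and the other model length.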

Additional observations from a re-analysis of the deposited data

Results flagged for a closer look

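For 3 of the 7 genes a loss gave ratios of opposite sign in its 2 separate pairs of libraries. Each pair is 1 library against 1, so the difference between them was not tested against replicates, and each was within the joint counting interval. For loss of *set-32*, *hpl-1* had a log2 ratio of 0.11 with the other methyltransferase genes intact and -0.95 with them mutated, from 9 to 14 reads a library, and *lin-61* of 0.051 and -0.075. For loss of *met-2* and *set-25*, *hpl-1* had 0.50 with *set-32* intact and -0.56 with it mutated, and *hpl-2* had 0.15 and -0.29. Both losses draw on the same libraries, so the difference between the 2 measures of a gene is the same for either loss (-1.07 for *hpl-1*). The entries for *hpl-1* are therefore 1 observation. The median difference between the 2 measures over 9627 models was 0.25 in size.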

How the results depend on the processing

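No paired analysis was possible because each genotype had 1 library, and leaving out a replicate was not possible for the same reason. Depth limited *hpl-1* most. Of 266 values of the 42 member ratios under the alternatives, 258 stayed inside the counting interval of the reported value, 7 lay outside it with the same sign and 1 changed sign where the interval excluded 1. That was *met-2* in *set-32*, at 0.31 against the median of the 4 other libraries (reported -0.45), a reference that holds both *met-2* mutants. A further 8 changed sign where the interval held 1. *met-2* had -1.58 in the double and -1.86 in the triple mutant with a pseudocount of 5, and -1.54 and -1.91 against the other libraries. With a pseudocount of 5 or after rescaling to the intrinsic class, 1 of the 7 genes was 2-fold lower in the triple mutant in place of 2. Rescaled to the intrinsic class, the median of the 6 lists turned to 0.035 in *set-32* and 0.044 in the triple mutant, that of the DRM, NuRD-type and synMuv B genes to 0.0074 in the triple mutant, and 1 list gene was 2-fold higher there. List genes 2-fold higher in the double mutant numbered 2 with a pseudocount of 0.1 and 0 with a pseudocount of 5, rescaling to all models, the stricter filter or the other libraries as reference, in place of 1. With no filter 1 (*set-13*) was lower there.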
